A study of Sus scrofa with 14 samples.

Results

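Stretched culture and static hormone culture were compared in the RNAseq of pig heart slices. The 2 MC libraries came from slices kept for 12 days in the cardiac tissue culture model (CTCM), a chamber in which air pressure moves a membrane and so stretches paced slices in each cycle, and their group label names no added hormones. The 4 TD libraries came from slices kept for 12 days in static paced culture with 100 nM triiodothyronine (T3) and 1 µM dexamethasone (Dex), a synthetic glucocorticoid. The members were chosen by their labels and are 6 of 14 libraries, beside 2 MT libraries (CTCM with the same T3 and Dex), 2 fresh D0 libraries and 4 Ctrl libraries (static culture without the hormones). All slices were cut from the left ventricle of female Yorkshire pigs 3 months old, and all cultured slices were paced in a medium with serum, VEGF and FGF. A general treatment field names T3 and Dex for every library, D0 and Ctrl included, and the label of MT-2 names T4, so the groups follow the titles and the group labels. By their labels and the methods of the study, MC and TD differ in stretch, in hormones and in the device, with its own supports, medium volume, medium changes and pacing voltage, and these cannot be told apart here. The sources used here do not say how many pigs gave the RNA, so p-values measure only the spread between these samples.

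Heart muscle cells contract through sarcomeres, in which myosin pulls on actin under the control of the troponins, and they draw most of their ATP from mitochondria, whose own DNA encodes core subunits of the respiratory chain. In culture, adult heart muscle loses sarcomere transcripts while fibroblasts and other cells persist. Stretch, thyroid hormone and glucocorticoids are each known to act on heart muscle, and Dex acts through the glucocorticoid receptor on a well described set of target genes.

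The files hold FPKM, fragments scaled to transcript length and library size, for 13644 genes, of which 11527 reached 1 FPKM in at least 2 of the 14 libraries and were tested. The depth in reads is unknown. A relative estimate, the most frequent ratio to TD-1 among low values, was 0.918 in MC-1 and 0.585 in MC-2. It was 1.49, 1.26 and 1.08 in TD-2, TD-3 and TD-4. In MC-2 that ratio was shared by 37 genes and the next by 29, so the estimate is uncertain. Whether depth accounts for zeros was not tested. The number of genes listed at 0 was 1127 in MC-1 and 1457 in MC-2, against 595 to 833 in the TD libraries. Across genes, log2 values of MC-2 correlated more closely with TD-4 (Pearson r = 0.976) and TD-1 (0.971) than with MC-1 (0.957), as a description of libraries that share most of their transcripts.

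Genes that answer to the hormones were examined before the comparison, since the MC libraries are labelled without them. These genes were named after their values were seen. FMO1, a flavin-containing monooxygenase, had 104 and 125 FPKM in the MC libraries, 127, 92.7, 99.7 and 149 FPKM in the TD libraries and 2.17 to 5.20 FPKM in Ctrl. The MC libraries thus stood among the TD libraries and far above Ctrl. The log2 fold change of MC over TD was -0.01 (95% interval -0.58 to 0.55). FKBP5, a chaperone partner of steroid receptors and a direct glucocorticoid receptor target, had 79.8 and 64.5 FPKM in MC, against 74.6, 79.9, 89.4 and 73.1 FPKM in TD and 17.4 to 32.6 FPKM in Ctrl. Here too the MC and TD libraries overlapped and both lay above every Ctrl library, with a log2 fold change of MC over TD of -0.14 (95% interval -0.63 to 0.36). TSC22D3, the glucocorticoid-induced leucine zipper, had 50.9 and 55.2 FPKM in MC, against 59.4, 55.3, 61.8 and 62.4 FPKM in TD and 22.9 to 30.8 FPKM in Ctrl. Both MC libraries were below every TD library by little, with a log2 fold change of -0.17 (95% interval -0.49 to 0.15).

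**Figure D1:**
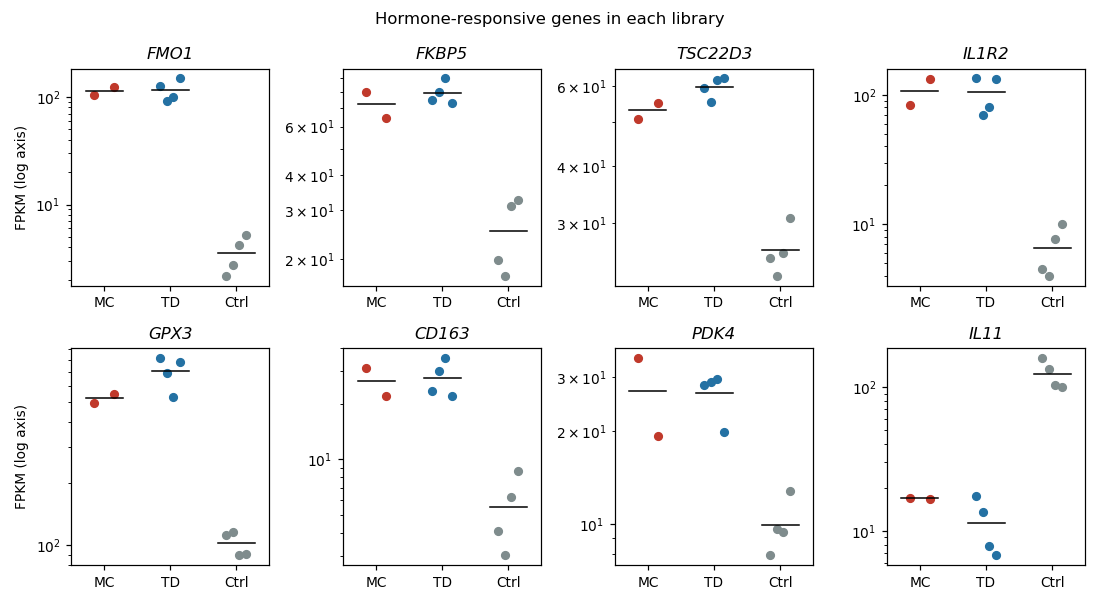
Levels of 8 genes in FPKM (log axis) in the MC, TD and Ctrl libraries, each point being a library and each line the mean of its group. MC and TD lie on the same side of every Ctrl library, as for FMO1 with 104 and 125 FPKM in MC, 92.7 to 149 FPKM in TD and 2.17 to 5.20 FPKM in Ctrl. MC and TD are not level in each gene. GPX3 had 494 and 547 FPKM in MC against 529 to 819 FPKM in TD (log2 fold change -0.42, SE 0.20, adjusted p = 0.642, limma).

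The same position held for secreted and immune genes. IL1R2, a decoy receptor for interleukin 1, had 83.0 and 132 FPKM in MC, against 134, 69.9, 80.7 and 134 FPKM in TD and 4.0 to 10.1 FPKM in Ctrl. CD163, the haemoglobin scavenger receptor of macrophages, had 31.3 and 22.0 FPKM in MC, against 23.6, 30.0, 35.5 and 22.0 FPKM in TD and 3.01 to 8.69 FPKM in Ctrl. The MC values of both genes lay within or next to the TD range. IL11, a cytokine of the interleukin 6 family, was at 17.0 and 16.7 FPKM in MC, against 17.4, 13.4, 7.78 and 6.75 FPKM in TD and 101 to 160.1 FPKM in Ctrl, so that it was low in both. Its MC over TD log2 fold change was 0.62 (SE 0.30, adjusted p = 0.646, limma). In a list of 41 tested glucocorticoid response genes, none was called between MC and TD, where 0.0434% of all genes were. At an unadjusted p under 0.05, none was higher and 2 were lower, against 2.79% higher and 4.96% lower over all genes. The median log2 fold change was -0.13, but 0.002 without MC-2, -0.29 without MC-1 and 0.003 with the trend of each library with GC content, described below, removed. Of the same 41 genes, 11 were called higher and 1 lower in MC than in Ctrl, and 11 were called higher and none lower in TD than in Ctrl, where 6.45% of all genes were called in MC (2.30% higher, 4.16% lower) and 3.48% in TD (1.26% higher, 2.22% lower). Both counts were taken against the same Ctrl libraries. In FMO1, FKBP5, TSC22D3, IL1R2, CD163 and IL11 the libraries labelled MC lay nearer to TD than to Ctrl. The genes and lists were chosen with values of these libraries known, so this describes the named genes only. KLF15 and PER1, below, stood otherwise, and what accounts for these positions was not tested.

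Not every such gene stood level. KLF15, a transcription factor induced by glucocorticoids, had 2.48 and 1.96 FPKM in MC, against 3.35, 4.62, 4.45 and 4.06 FPKM in TD and 2.08, 1.34, 2.66 and 3.45 FPKM in Ctrl. Both MC libraries were below every TD library and lay within the Ctrl range (MC over TD, log2 fold change -0.67, SE 0.23, adjusted p = 0.615, limma). PER1, a clock gene in the glucocorticoid response list, overlapped TD and lay below every Ctrl library. It had 15.7 and 4.69 FPKM in MC, against 12.3, 37.9, 25.9 and 11.4 FPKM in TD and 16.1 to 32.1 FPKM in Ctrl. Its MC over TD log2 fold change was -1.07 (SE 0.48, adjusted p = 0.629, limma), and -1.84 to -0.29 with 1 library left out. Of the 41 genes of that list, 10 had a positive log2 fold change. DIO3, the deiodinase that inactivates thyroid hormone and is itself raised by it, had 14.8 and 14.9 FPKM in MC, against 33.5, 23.9, 16.6 and 29.5 FPKM in TD and 0.445 to 2.71 FPKM in Ctrl. Its MC libraries were below every TD library yet above every Ctrl library (MC over TD -0.72, 95% interval -1.49 to 0.05). The differences of KLF15, PER1 and DIO3 did not pass the adjusted test. Of 23 tested thyroid hormone response genes, 1 was above TD without overlap and 4 below, against 7.10% and 8.41% of all genes. At an unadjusted p under 0.05, none was higher and 1 lower, against 2.79% and 4.96% of all genes. None was called between MC and TD, where 0.0434% of all genes were.

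The comparison of MC with TD called 5 genes, 0.0434% of the 11527 tested, 2 higher (0.0174%) and 3 lower (0.0260%; limma, adjusted p under 0.05). At an unadjusted p under 0.05, 894 genes (7.76%) differed, 322 (2.79%) higher and 572 (4.96%) lower. The groups did not overlap in 1787 genes (15.5%), with both MC libraries above all TD libraries in 818 (7.10%) and below them in 969 (8.41%).

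Sequence from the coding exons shows the base composition of genes on either side of the comparison, which is taken up below. Each is the central stretch of the longest coding exon in RefSeq (Sscrofa11.1), 5′ to 3′ on the gene's strand, with G and C in capitals. SH3BP1 (chr5:10172808-10172897, minus strand) and SOD3 (chr8:18801010-18801099, plus strand) were lower in both MC libraries than in every TD library, and ND5 (MT:13801-13890, plus strand), IL33 (chr1:215901798-215901887, minus strand) and TNNT2 (chr10:23751963-23752052, minus strand) were higher.
SH3BP1: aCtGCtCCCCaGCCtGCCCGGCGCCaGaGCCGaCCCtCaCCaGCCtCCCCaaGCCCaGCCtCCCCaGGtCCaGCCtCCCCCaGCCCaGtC
SOD3: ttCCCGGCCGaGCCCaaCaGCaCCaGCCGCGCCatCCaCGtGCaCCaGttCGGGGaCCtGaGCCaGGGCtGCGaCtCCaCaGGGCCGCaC
ND5: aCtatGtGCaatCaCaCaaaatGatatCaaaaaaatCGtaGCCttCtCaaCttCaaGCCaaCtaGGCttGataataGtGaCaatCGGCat
IL33: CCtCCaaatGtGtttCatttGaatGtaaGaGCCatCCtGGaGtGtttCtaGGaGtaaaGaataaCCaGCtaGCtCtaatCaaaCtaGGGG
TNNT2: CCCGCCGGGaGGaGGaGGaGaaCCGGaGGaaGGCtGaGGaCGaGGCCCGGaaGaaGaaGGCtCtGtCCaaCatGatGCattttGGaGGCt
G or C made up 67 of 90 bases in SH3BP1 and 64 in SOD3, against 33 in ND5 and 37 in IL33. TNNT2, with 55, stood between them.

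TNNT2 (ENSSSCG00000023031, chromosome 10 from 23749528 to 23759696, minus strand), cardiac troponin T, ties the troponin complex to the thin filament. It had 4.76 and 3.74 FPKM in MC, against 0.848, 0.836, 0.176 and 0.537 FPKM in TD. The groups did not overlap. The mean was 4.25 ± 0.726 FPKM in MC (SD, n = 2) and 0.599 ± 0.317 FPKM in TD (SD, n = 4), a 7.09-fold difference. On the log2(FPKM + 1) scale, which understates changes of low genes, it rose by 1.73 (SE 0.26, adjusted p = 0.046, limma). It stood at 24.5 and 36.5 FPKM in MT, 23.3 and 16.4 FPKM in D0 and 0.607 to 1.75 FPKM in Ctrl, so MC lay above both static conditions and below MT and D0. The adjusted p ranged over 0.0252 to 0.389 across the alternatives, and the call was lost whenever any 1 of the 6 libraries was left out (0.0815 to 0.194).

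SH3BP1 (ENSSSCG00000028531, chromosome 5 from 10172303 to 10187883, minus strand) encodes a GTPase-activating protein for Rac. It had 2.03 and 2.79 FPKM in MC, against 6.04, 10.7, 9.80 and 8.31 FPKM in TD, with no overlap. It fell by 1.49 on the log2 scale (SE 0.23, adjusted p = 0.046, limma). The MT libraries, at 2.09 and 3.49 FPKM, were near MC, and Ctrl, at 8.17 to 10.5 FPKM, lay within the TD range. Among the genes with a known GC content its adjusted p was 0.0518, and with the GC trend of each library removed its log2 fold change was -1.17 (adjusted p = 0.1, limma). The call was lost without any 1 of the 6 libraries (adjusted p 0.0605 to 0.203).

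The other called genes are short or low. SNORD33 (entry ENSSSCG00000025540), a small nucleolar RNA that guides methylation of ribosomal RNA, is listed at 0 in both MC and both MT libraries, against 5.11, 9.41, 4.04 and 2.96 FPKM in TD (adjusted p = 0.046, limma). A second entry of the same symbol (ENSSSCG00000028483) overlapped, with 0 and 6.32 FPKM in MC and 3.43 to 7.39 FPKM in TD. An unnamed gene (ENSSSCG00000038609), named here after its values were seen, is likewise listed at 0 in MC and MT, against 3.45, 5.13, 4.24 and 3.20 FPKM in TD (adjusted p = 0.046, limma). Of 299 small RNA genes, 202 and 249 are listed at 0 in the MC libraries, against 187, 153, 171 and 204 in the TD libraries and 276 and 288 in MT, so zeros among short genes were more frequent in MC-2 than in any TD library. TSACC, a co-chaperone of a testis kinase, also named after its values were seen, had 1.27 and 1.19 FPKM in MC, against 0.116, 0.0779, 0.0920 and 0.323 FPKM in TD (log2 fold change 0.96, SE 0.15, adjusted p = 0.046, limma). It is listed at 0 in both MT libraries and reached at most 0.211 FPKM in Ctrl. Among the cultured libraries, only the 2 MC libraries, where it is high, reached the 1 FPKM of the filter for testing. Each of these 3 calls was lost without any 1 of the 6 libraries (adjusted p 0.067 to 0.217 over the 3 genes).

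The sarcomere genes, TNNT2 among them, leaned higher in MC. Of 50 listed, 30 were tested. TNNT2 was called higher and none lower, where 0.0174% of all genes were called higher and 0.0260% lower. At an unadjusted p under 0.05, 7 were higher and none lower, and 9 did not overlap, all with MC above TD, against 2.79% and 7.10% of all genes. TNNT2 is counted in each. The median log2 fold change of the list was 0.16, against -0.02 over all genes, with 23 of 30 above 0, and the list's median stayed between 0.05 and 0.27 over the alternatives. In bulk tissue, fewer cells of a type and less RNA per cell cannot be told apart.

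MYL2 (ENSSSCG00000039710, chromosome 14 from 32205953 to 32213848, minus strand), the ventricular regulatory myosin light chain, had 20.2 and 30.4 FPKM in MC, against 7.95, 6.63, 2.21 and 7.95 FPKM in TD. Both MC libraries were above every TD library, but the difference did not pass (log2 fold change 1.96, SE 0.44, adjusted p = 0.379, limma). It stood at 73.4 and 205 FPKM in MT and 332 and 285 FPKM in D0. TNNC1, the calcium-binding troponin, had 11.4 and 17.1 FPKM in MC, against 9.33, 3.10, 1.45 and 3.40 FPKM in TD, with TD-1 nearest to MC (1.69, SE 0.44, adjusted p = 0.519, limma). MYL3, the essential light chain, had 3.51 and 6.15 FPKM in MC, against 2.29, 1.54, 0.328 and 1.17 FPKM in TD. It too did not overlap (1.36, SE 0.42, adjusted p = 0.615, limma). ACTA1, the skeletal alpha-actin that is re-expressed in stressed heart muscle, had 2.72 and 7.71 FPKM in MC, against 1.67, 1.05, 0.353 and 1.06 FPKM in TD. MC-2 stood far above MC-1, and both above every TD library (1.53, SE 0.36, adjusted p = 0.389, limma). MYOZ2, a Z-disc protein that binds calcineurin, had 1.44 and 2.39 FPKM in MC, against 0.368, 0.676, 0.0813 and 0.389 FPKM in TD (1.08, SE 0.22, adjusted p = 0.243, limma). TD-3 was the lowest library in all 5 of these genes.

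ACTC1, cardiac alpha-actin, was high in 1 MC library only, with 0.161 and 3.04 FPKM in MC against 0.148, 0.149, 0.205 and 0.0343 FPKM in TD. Without MC-1 it was called (adjusted p = 0.046, limma), so that call rested on MC-2. CSRP3, ACTN2 and MYH7 had no overlap, with MC above TD, but reached at most 1.47 FPKM in either group. Other contractile genes stood level. DES, the muscle intermediate filament, had 4.68 and 3.74 FPKM in MC, against 4.16, 5.93, 2.38 and 3.57 FPKM in TD and 179 and 158 FPKM in D0, so it was low in both cultures (MC over TD 0.10, 95% interval -0.47 to 0.67). TPM1, a tropomyosin shared with other cells, had 77.0 and 93.9 FPKM in MC, against 85.2, 58.5, 58.7 and 90.02 FPKM in TD (0.24, 95% interval -0.24 to 0.72). ANKRD1, a stretch-responsive nuclear cofactor, had 31.7 and 19.8 FPKM in MC, against 22.2, 23.1, 11.9 and 15.7 FPKM in TD (0.48, 95% interval -0.24 to 1.21). Of 34 tested genes of stretch and hypertrophy, none was called, where 0.0434% of all genes were. At an unadjusted p under 0.05, 2 were higher and 1 lower, against 2.79% and 4.96% of all genes. The median log2 fold change was -0.23, but -0.054 without MC-2, -0.387 without MC-1, -0.095 without TD-2 and 0.008 without TD-2 and TD-3.

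**Figure D2:**
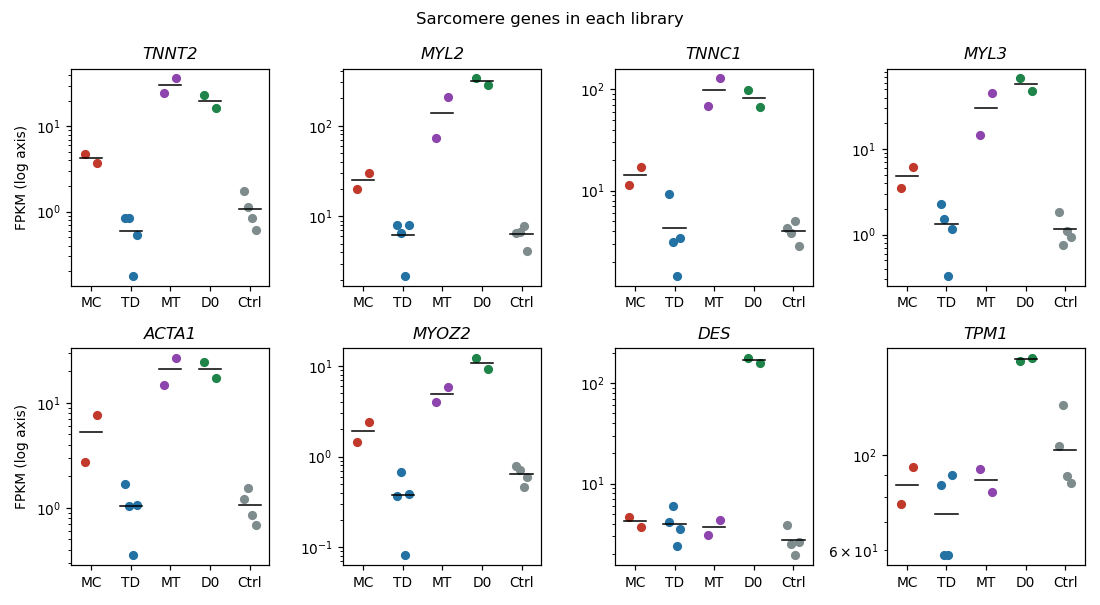
Levels of 8 sarcomere genes in FPKM (log axis) in the MC, TD, MT, D0 and Ctrl libraries, each point being a library and each line the mean of its group. For TNNT2, MYL2, TNNC1, MYL3, ACTA1 and MYOZ2 both MC libraries lie above all 4 TD libraries, while DES and TPM1 overlap.

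Summed over the 9 of 12 cardiomyocyte markers in the table, the level was 40.6 and 61.1 FPKM in MC, against 20.7, 12.5, 4.46 and 13.2 FPKM in TD and 534 and 425 FPKM in D0. The MC libraries were above every TD library and far below the fresh slices. MYH6, TNNI3 and TTN have no entry under these symbols, and MYL2 and TNNC1, described above, made up most of the sum in MC. The wider sarcomere list, with 40 of 50 genes in the table, summed to 509 and 786 FPKM in MC. In TD it summed to 648, 480, 442 and 778 FPKM, so the groups overlapped. Fibroblast markers summed to 3135 and 2993 FPKM in MC, against 3097, 3820, 4641 and 2890 FPKM in TD, endothelial markers to 146 and 132 FPKM in MC, against 180, 178, 181 and 108 FPKM in TD, and macrophage markers to 396 and 465 FPKM in MC, against 436, 464, 433 and 492 FPKM in TD. These overlapped. The 2 of 13 lymphocyte markers in the table summed to 12.9 and 13.1 FPKM in MC, against 14.8, 19.8, 19.0 and 20.8 FPKM in TD, with MC below every TD library. Whether the share of cell types moved the sarcomere genes was not tested.

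The transcripts of mitochondrial DNA were higher in both MC libraries than in every TD library, apart from ATP8, without a gene past the adjusted test. Of the 13 protein genes none was called, but 12 were higher at an unadjusted p under 0.05 and none lower, and 12 did not overlap. Over all genes, 0.0434% were called, 2.79% were higher at that unadjusted threshold and 7.10% lay above TD without overlap. In the quintile of genes poorest in GC, described below, 178 of 1944 were higher and 423 lay above TD without overlap. The 13 mitochondrial genes had a median log2 fold change of 1.08, and of 0.66 to 1.24 over the alternatives. They took 9.86% and 9.30% of summed FPKM in MC, against 4.76% to 5.56% in TD. ND5, a core subunit of complex I (ENSSSCG00000018091, mitochondrial genome from 12935 to 14755, plus strand), had 1493 and 1696 FPKM in MC, against 808, 782, 773 and 761 FPKM in TD. The TD libraries were close to each other and the MC libraries far above them (log2 fold change 1.03, SE 0.22, adjusted p = 0.306, limma). ND4, another complex I subunit, had 1596 and 1880.3 FPKM in MC, against 941, 842, 648 and 772 FPKM in TD (1.13, SE 0.23, adjusted p = 0.243, limma). ATP6, a subunit of ATP synthase, had 4477 and 5241 FPKM in MC, against 2841, 2009, 1042 and 1835 FPKM in TD (1.41, SE 0.37, adjusted p = 0.519, limma). COX1, the catalytic subunit of cytochrome oxidase, had 9831 and 13084 FPKM in MC, against 7779.5, 4772, 4822 and 7449 FPKM in TD. Again no MC library was within the TD range. ATP8 was the exception, with 6.36 and 8.68 FPKM in MC against 4.57, 3.06, 7.42 and 4.70 FPKM in TD. ND5 and ND6, and ATP6 and ATP8, overlap on the genome, and the strand setting of the counting is not given in the sources used here, so their shared bases cannot be told apart.

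**Figure D3:**
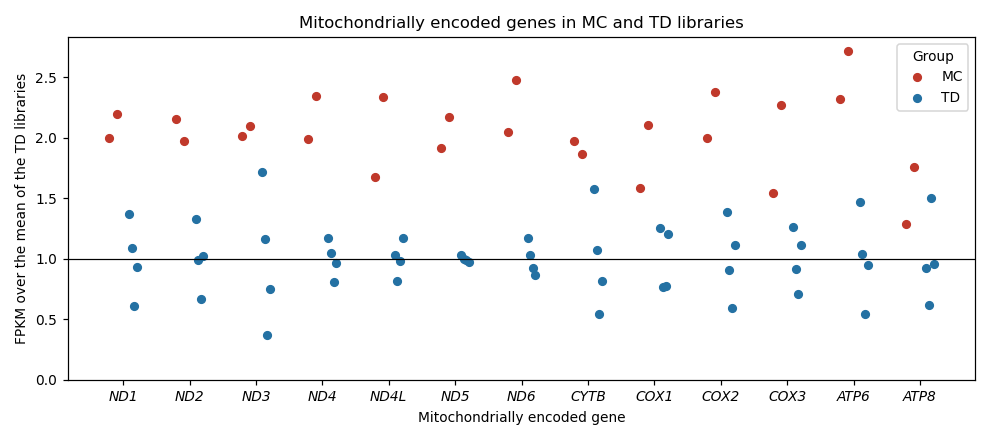
Level of the 13 mitochondrially encoded genes in each MC and TD library, as FPKM divided by the mean of the TD libraries (linear axis from 0). Both MC libraries lie above all 4 TD libraries for 12 genes, ATP8 being the exception.

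The nuclear subunits of the same complexes showed smaller differences. Of 62 tested, none was called or passed an unadjusted p of 0.05 and none was free of overlap, with a median log2 fold change of 0.23 and 52 above 0. Over all genes, 0.0434% were called, 7.76% passed that unadjusted threshold and 15.5% did not overlap. All 52 tested cytosolic ribosomal protein genes had a positive log2 fold change, with a median of 0.29 and none past the unadjusted threshold. The medians changed sign without MC-2, to -0.12 for the nuclear subunits and -0.11 for the ribosomal proteins, and without TD-2 and TD-3, to -0.21 and -0.34. The ribosomal protein genes varied within the groups, taking 17.5% and 22.6% of summed FPKM in MC, against 24.9%, 15.6%, 14.1% and 22.0% in TD.

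Differences between MC and TD followed base composition across the genome. Over the 9720 tested genes with a transcript in RefSeq, the log2 fold change had a Spearman correlation of -0.666 with the percent of G and C, a description across genes that share the same 6 libraries. In the quintile of genes poorest in GC (median 39.6%), the median log2 fold change was 0.23, with 178 genes higher and 1 lower at an unadjusted p under 0.05. In the richest quintile (median 63.5%) it was -0.30, with 9 genes higher and 301 lower. Genes that were higher had a median GC of 40.6% and those that were lower 62.4%, against 51.4% over all genes. Each library's own offset, the richest minus the poorest quintile in median log2 deviation, was -0.543 and -0.446 in MC, against -0.301, 0.389, 0.0821 and 0.00703 in TD, with MT at -0.540 and -0.398. The CTCM libraries were thus the 4 most negative, and TD-1 stood nearest to them.

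**Figure D4:**
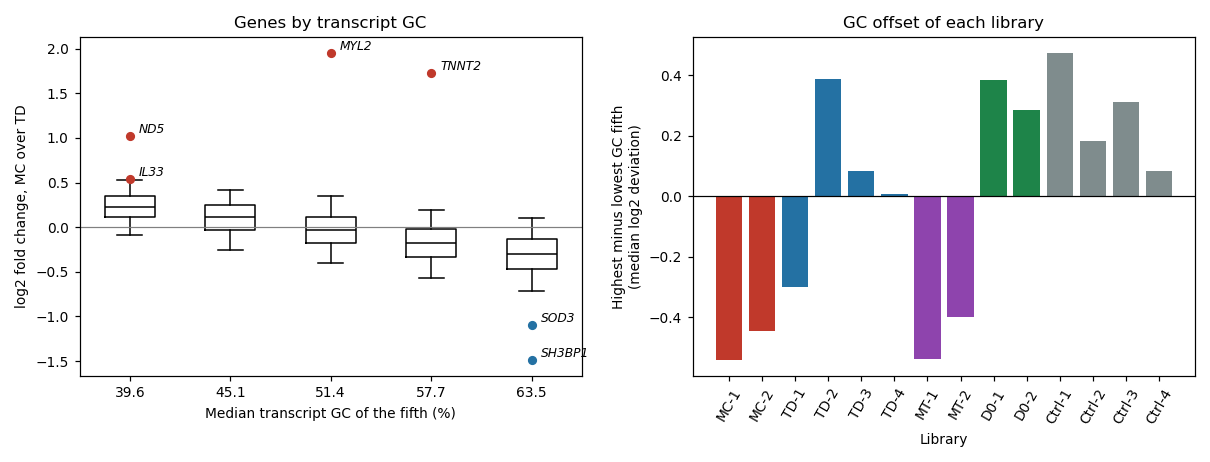
Left, log2 fold change of MC over TD by quintile of transcript GC, with boxes for quartiles, whiskers for the 5th to 95th percentiles and named genes as points. Right, for each library, the median log2 deviation of the GC-richest quintile minus that of the poorest, where the MC bars are -0.543 and -0.446 and the TD bars run from -0.301 to 0.389.

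The trend could be removed for these 9720 genes, which hold neither SNORD33 nor the unnamed called gene. Tested alone and uncorrected, 753 of them had an unadjusted p under 0.05 and none was called, with TNNT2, SH3BP1 and TSACC at an adjusted p of 0.0518 (limma). With the trend removed from each library, 272 had an unadjusted p under 0.05, 127 higher and 145 lower, and TNNT2 was called (log2 fold change 1.93, adjusted p = 0.0433, limma). The mitochondrially encoded genes, with a median GC of 38.8%, kept a median of 0.86 with 10 of 13 higher at an unadjusted p under 0.05. The sarcomere list kept a median of 0.24 with 7 higher and none lower. The differences of IL33 and MFAP4 below became smaller, to 0.27 and -0.20.

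Matrix genes leaned lower in MC. Of 57 tested, none was called, where 0.0434% of all genes were. At an unadjusted p under 0.05, 1 was higher and 2 lower, against 2.79% and 4.96% of all genes. None was above and 7 were below TD without overlap, against 7.10% and 8.41% of all genes. The median was -0.27, but -0.12 with the GC trend removed, -0.138 without TD-3, -0.180 without TD-2, -0.157 without MC-2, -0.428 without TD-1 and -0.421 without TD-4. Without TD-2 and TD-3 it was 0.08. BGN, the proteoglycan biglycan, had 899 and 830.3 FPKM in MC, against 1026, 1767, 1612 and 1349 FPKM in TD (log2 fold change -0.71, SE 0.27, adjusted p = 0.615, limma). MFAP4, an elastic fibre protein, had 26.6 and 27.8 FPKM in MC, against 38.6, 42.2, 35.1 and 46.0 FPKM in TD (-0.55, SE 0.17, adjusted p = 0.576, limma). Neither overlapped. COL1A1, the main fibrillar collagen chain, had 291 and 221 FPKM in MC, against 205, 808, 1049.7 and 354 FPKM in TD, where TD-2 and TD-3 were high and TD-1 was below MC. POSTN, a matricellular protein of activated fibroblasts, went the other way, with 249 and 224 FPKM in MC against 239, 137, 131 and 155 FPKM in TD.

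SOD3, the extracellular superoxide dismutase (ENSSSCG00000028814), had 167 and 159 FPKM in MC, against 343, 475, 275 and 333 FPKM in TD. Both MC libraries were far below every TD library, without passing the adjusted test (-1.09, SE 0.25, adjusted p = 0.389, limma, and -0.73 with the GC trend removed). HSPB6, a small heat shock protein of muscle, had 20.4 and 26.7 FPKM in MC, against 32.8, 44.9, 40.6 and 38.0 FPKM in TD (-0.71, SE 0.18, adjusted p = 0.485, limma). SERPING1, the inhibitor of complement C1, had 159 and 145 FPKM in MC, against 208, 228, 217 and 225 FPKM in TD (-0.53, SE 0.14, adjusted p = 0.549, limma). All 3 were lower in both MC libraries. In the renin-angiotensin list, AGT, the precursor of angiotensin, had 54.4 and 48.7 FPKM in MC, against 64.9, 76.4, 77.7 and 79.7 FPKM in TD and 7.28 to 14.6 FPKM in Ctrl, and ACE, the converting enzyme, had 14.4 and 11.9 FPKM in MC, against 17.7, 25.9, 20.6 and 17.8 FPKM in TD. MC was below TD in both genes, and none of the 16 tested genes of this list was called, where 0.0434% of all genes were.

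Immune and growth factor genes went either way. CCL8, a chemokine for monocytes, had 3.47 and 3.88 FPKM in MC, against 1.96, 0.739, 1.02 and 0.625 FPKM in TD and 0 in both MT libraries (log2 fold change 1.20, SE 0.29, adjusted p = 0.389, limma). IL33, an alarmin named here after its values were seen, had 313 and 387 FPKM in MC, against 285, 176, 224 and 294 FPKM in TD (0.54, SE 0.21, adjusted p = 0.615, limma). Both were higher in the 2 MC libraries. CCL21, a chemokine of lymphatic vessels, is listed at 0 in both MC libraries, against 0.447 to 1.32 FPKM in TD. AREG, a ligand of the EGF receptor, had 23.4 and 26.6 FPKM in MC, against 16.3, 14.02, 18.8 and 17.1 FPKM in TD (0.57, SE 0.20, adjusted p = 0.615, limma). SFRP1, a secreted Wnt antagonist, had 14.1 and 19.3 FPKM in MC, against 12.5, 10.8, 9.55 and 8.85 FPKM in TD and 70.8 to 116 FPKM in Ctrl, so both groups were far below Ctrl and MC above TD (0.62, SE 0.21, adjusted p = 0.615, limma). Of 46 tested cytokine genes and 35 tested growth factor genes, none was called, where 0.0434% of all genes were.

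The study's own marker genes were those of its RNAseq heatmap and its qRT-PCR. Some of the qRT-PCR genes were selected from its RNAseq result, so the set is no independent evidence. It comprised 31 genes, of which 27 were tested and 1, TNNT2, was called, where 0.0434% of all genes were. TNNC1, MYL3, ACTN2 and MYH7 were higher in MC without overlap, and COL26A1 and PKDCC lower, where 7.10% of all genes were above and 8.41% below without overlap. The other 20 overlapped, with log2 fold changes from -0.33 to 0.94 and adjusted p of 0.615 to 0.982 (limma). CASQ1, CYGB, MYH11 and RYR2 did not pass the filter on low values.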

How the data were processed

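The 14 RNAseq libraries of pig heart slices were grouped by sample titles. Per the labels, the authors used CASAVA and HISAT2 with Sscrofa11.1, and they deposited FPKM for 13644 genes. No version, counting tool or annotation release was found in the paper or the labels, and the 2 name different library kits. The study names DESeq2, which needs counts and was not run. Symbols came from the table for 11135 genes and from RefSeq for 594 more.

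The deposited FPKM were put on the log2(FPKM + 1) scale without rescaling. A gene was tested if it reached 1 FPKM in 2 or more of the 14 libraries, which left 11527. A single model with a mean for each condition was fitted to the 14 libraries (limma 3.58.1, R 4.3.3, eBayes with trend, 3.883 prior degrees of freedom). Tests were two-sided, with Benjamini-Hochberg adjustment at 0.05. Unless another setting is named, every adjusted p comes from this fit. With 2 against 4 libraries, groups that do not overlap are a description. GC was read from RefSeq transcripts of Sscrofa11.1 and its trend removed by lowess (span 0.3). On data simulated over 11527 genes, limma recovered 51% of genes changed by 1 and 98% of those changed by 2 on the log2 scale in MC against TD, with 7 false of 156 calls. The simulation drew libraries independently, gave each gene the same spread in all groups and changed only genes with a mean log2 value above 2. The real groups differed in spread, from 0.165 in D0 to 0.632 in MT, and followed a GC trend. The simulated rates therefore need not hold for them. Other steps used Python 3.11.15, pandas 2.3.3, numpy 2.4.6 and matplotlib 3.10.9.

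The members and lists were chosen with earlier results of these data known. The rule for naming took called genes that carry a symbol, average 5 FPKM or more in MC or TD and do not overlap, the 3 largest rises and falls per list, and the study's marker genes, many of which are given here only as counts. Genes the text discusses beyond it (among them FMO1, FKBP5, TSC22D3, IL1R2, CD163, DIO3, DES, TPM1, MYOZ2, CSRP3, ND4, ND5, COX1, ATP8, BGN, MFAP4, CRAT and PDK4) were chosen after their values were seen. Of the 32 lists and 10 marker lists, those not described had no gene called, where 0.0434% of all genes were. Alternatives changed the pseudocount, filter, scaling, weights or libraries, added a replicate block, left out each library in turn and applied, chosen after seeing the data, GC corrections, a ribosomal covariate, a higher filter and the omission of pairs of TD libraries.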

Additional observations from a re-analysis of the deposited data

Results flagged for a closer look

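Among the genes described, 2 had a TD library that stood apart from the other 3, a check that chance meets in about 1 of 20 groups of this size. With 56 genes named, chance alone would give some such libraries. TSACC was at 0.323 FPKM in TD-4, above the other TD libraries and below both MC libraries. PDK4, a kinase that limits pyruvate oxidation, was at 19.8 FPKM in TD-4, below the other TD libraries at 28.2 to 29.6 FPKM, and beside 34.6 and 19.3 FPKM in the MC libraries.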

How the results depend on the processing

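The number of genes called between MC and TD, 5 (2 higher, 3 lower), moved with most settings. It was 9 (0 higher, 9 lower) with a pseudocount of 0.1, 2 (2 higher, 0 lower) with a pseudocount of 5, 1 (1 higher, 0 lower) with no filter and 9 (3 higher, 6 lower) without the MT libraries. It was 0 in either direction with at least 5 FPKM in 2 libraries, rescaled to TPM, rescaled without mitochondrial and ribosomal genes, with MC and TD alone and with limma arrayWeights, where 603, 697, 736, 583 and 2225 genes had an unadjusted p under 0.05. Among the alternatives chosen once the data had been seen, it was 0 in either direction without TD replicates 2 and 3, with a mean of at least 20 FPKM, with genes that have a GC value, with GC and length trends removed and with the ribosomal protein share as a covariate (421, 180, 753, 350 and 1695 unadjusted), 1 (1 higher, 0 lower) with the GC trend removed and 264 (84 higher, 180 lower) with that covariate and without the MT libraries. In that last fit MYL2 (adjusted p = 0.0256) and ND4 (adjusted p = 0.0252, limma) were among the calls. The cause was not tested. Rescaling to TPM moved the median log2 fold change of all genes to -0.135, against -0.017. Leaving out 1 library gave 0 to 4 calls (0 to 3 higher, 0 to 1 lower). With a replicate block, 1 gene was called (0 higher, 1 lower). Deviations of same-numbered MC and TD libraries from their group means correlated at -0.254 and -0.492. With 2 MC libraries the MC deviations mirror each other, so these values cannot decide whether the numbers pair the libraries. Over 26 settings, 1279 of 1418 log2 fold changes of named genes kept their direction and side of the threshold, 91 lost a call, 17 gained one and 31 changed sign. Most of the 1279 were of genes never called, while all 91 losses fell on the 5 called genes. TNNT2 kept its call in 5 settings and lost it in 20, SH3BP1 in 6 and 19, and TSACC in 6 and 18. SNORD33 and the unnamed gene each kept theirs in 5 and lost it in 17. All of the genes that changed sign were uncalled. They were DES -0.0186 and IL1R2 -0.0938 (rescaled to TPM), DES -0.138, FMO1 0.211, FKBP5 0.0649 and CD163 0.189 (replicate block), TPM1 -0.0420, IL1R2 -0.352, CD163 0.199 and PDK4 0.126 (without TD replicates 2 and 3), ATP8 -0.220 (GC and length trends removed per library), FMO1 0.172 (limma arrayWeights), FMO1 0.244 (without TD replicates 1 and 4), CD163 0.0108 and PDK4 0.00835 (ribosomal protein share as a covariate, without the MT libraries), PDK4 0.0288 (ribosomal protein share as a covariate). With 1 library left out the ranges of those that changed sign were DES -0.0748 to 0.271, FMO1 -0.139 to 0.115, FKBP5 -0.290 to 0.0137, IL1R2 -0.270 to 0.390, CD163 -0.297 to 0.193 and PDK4 -0.424 to 0.384. Low genes and zeros limit what 2 MC libraries can show.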

Other observations

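Other lists held no called gene, where 0.0434% of all genes were called. In fatty acid metabolism, 1 of 43 tested genes was higher and 5 lower at an unadjusted p under 0.05, against 2.79% and 4.96% of all genes, and none was higher and 1 lower with the GC trend removed. PDK2, a kinase that restrains pyruvate dehydrogenase, had 1.56 and 1.65 FPKM in MC, against 2.25, 3.28, 2.63 and 3.35 FPKM in TD, and CRAT, which transfers acetyl groups to carnitine, had 5.01 and 5.16 FPKM in MC, against 5.77, 7.86, 6.71 and 9.22 FPKM in TD. In the BMP list, 4 of 27 were lower and none higher by the same measure, where 4.96% of all genes were lower, and none was lower with the GC trend removed. ENG, an endothelial co-receptor, had 32.1 and 32.1 FPKM in MC, against 37.1, 69.3, 64.5 and 44.2 FPKM in TD. In the cell cycle list the spindle checkpoint kinase BUB1B was higher, with 4.37 and 4.04 FPKM in MC against 3.50, 3.03, 2.51 and 2.36 FPKM in TD, while the replication helicase subunit MCM2 was lower, with 4.14 and 2.61 FPKM in MC against 4.67, 7.26, 6.21 and 6.55 FPKM in TD. CTSS, a protease of antigen presentation, had 27.4 and 32.7 FPKM in MC, against 21.4, 15.7, 18.8 and 19.9 FPKM in TD. None of these differences passed the adjusted test.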
